A study of Mus musculus with 12 samples.

Results

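Satellite cells are the stem cells of skeletal muscle. They lie under the basal lamina of the fibre, express the transcription factor Pax7, divide while muscle grows after birth, and rest in adult muscle until injury calls on them. Resting cells keep high levels of Pax7, of Notch targets such as Hes1 and of the growth factor antagonist Spry1, whereas cells that commit to differentiation turn on Myog and then the genes of fusion and contraction.

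Here adult satellite cells were set against adolescent ones, on 6 of the 12 arrays of the series (3 adult and 3 adolescent). The adult cells came from mice of 2 to 3 months and the adolescent cells from mice at postnatal day 21. The labels give 8 mice for the adult stage and 6 for the adolescent stage. Cells of both stages were sorted from dissociated hindlimb muscle of heterozygous Pax7-ZsGreen mice of strain C57BL/6, in which Pax7 drives a green fluorescent protein. Gates were set by age, against wild type SV129 mice. The labels do not say that the 3 replicates of a stage are independent pools of mice, and a p-value here therefore covers array-to-array spread that may be technical. The other 6 arrays hold fetal (E17.5) and aged (over 1 year) cells. They enter the estimate of the spread, the choice of 1 probe set per gene, mean levels over 12 arrays and the repeated quantile normalization. Their own levels are given only where named.

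Values are log2 intensities from single-colour Affymetrix arrays, 1 probe set for each of 19938 genes. Precision is limited by having 3 arrays a stage. Each difference is adult minus adolescent on the log2 scale, with a standard error (SE) from limma's fit of all 12 arrays (n = 3 a stage). A gene is said to have risen or fallen where the Benjamini-Hochberg adjusted p over 19938 genes was under 0.05. Levels are compared between arrays, never between genes.

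The 3 adult arrays were not alike. Adult replicates 2 and 3 correlated with each other at r = 0.996 across genes and with adult replicate 1 at 0.973 and 0.972. Adult replicate 1 correlated with the adolescent arrays at 0.984 to 0.985. The interquartile range over genes was 3.01 on adult replicate 1 and 2.43 on each of adult replicates 2 and 3, against 3.00 to 3.07 on the adolescent arrays. Adolescent replicates 2 and 3 correlated at 0.999, and with adolescent replicate 1 at 0.993. The mean of 1194 olfactory and vomeronasal receptor genes, taken as a measure of array background, was 3.84 on adult replicate 1, 4.47 on replicate 2 and 4.51 on replicate 3, against 3.88 to 3.92 on the adolescent arrays.

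Values on adult replicates 2 and 3 were thus drawn together: genes with a mean level of 4 to 5 lay a median of 0.32 and 0.33 above the adolescent mean, and genes at 8 to 9 a median of 0.35 and 0.36 below it. On adult replicate 1 those medians were -0.04 and -0.03. A fall of about 0.3 in a bright gene, or a rise of that size in a dim gene, is therefore of the size of this shift. Repeated quantile normalization of the 12 arrays brought the median differences of all level classes to between -0.03 and 0.08, and counts in brackets after a list's counts are rises and falls on that scale.

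**Figure D1:**
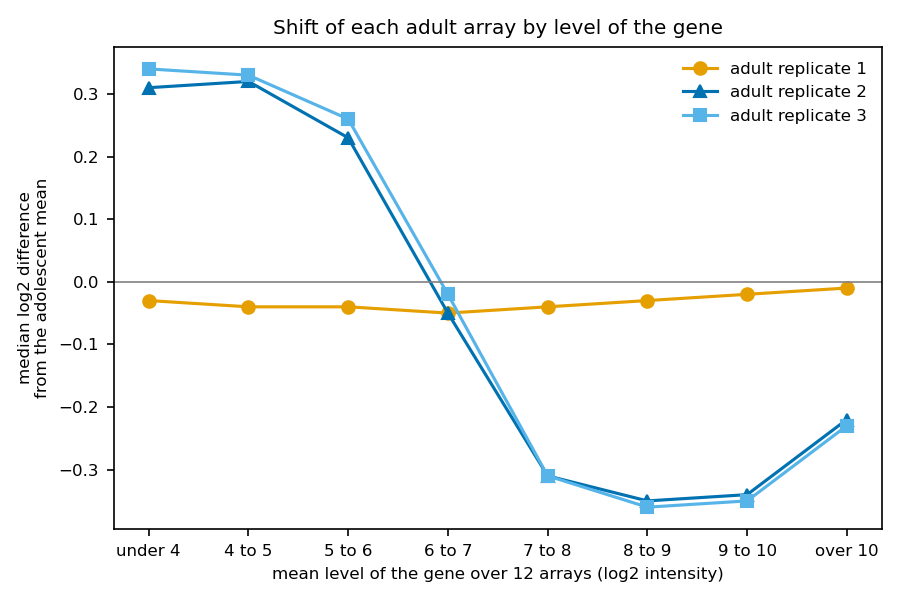
Median log2 difference of each adult array from the mean of the 3 adolescent arrays (vertical axis), for genes grouped by their mean log2 intensity over 12 arrays (horizontal axis). Adult replicate 1 stays between -0.05 and -0.01, while adult replicates 2 and 3 lie at 0.31 to 0.34 for genes under a level of 5 and at -0.36 to -0.31 for genes between 7 and 10.

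Of the 19938 genes, 909 rose (4.56%) and 3032 fell (15.2%) in adult cells. Those that changed at least 2-fold numbered 89 up and 542 down. After repeated quantile normalization 1988 rose (9.97%) and 1980 fell (9.93%), so the excess of falls over rises among all genes was not seen on that scale, while the excess among 2-fold changes was (146 up and 420 down). Without adult replicate 1 there were 5061 rises (25.4%) and 5696 falls (28.6%), which held 904 of the 909 rises and 3029 of the 3032 falls. Of these 5061 rises, 3686 were of genes with a mean level under 6, and 930 were of the 1194 receptor genes, of which 50 rose with all arrays. All 3 adult arrays lay above all 3 adolescent arrays for 2710 genes (13.6%) and below them for 4459 (22.4%). Falls were commoner among bright genes: 26.0% of genes with a mean level of 7 to 8 fell, and 28.4% at 8 to 9. After quantile normalization these shares were 15.2% and 13.9%. The counts of a list are to be read beside these shares.

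Replicates 2 and 3 were alike within each stage, and averaging them, so that a stage counted 2 arrays, left 76 rises and 247 falls. Of the G2 and M genes described next, 62 of 109 then fell, as did 26 of 88 S phase genes and 7 of 24 imprinted or fetal growth genes. Immediate early genes had 5 rises of 45, steroid and thyroid genes 3 of 29 and quiescence genes 2 of 40. Genes named in the text that lost their call in this way included Mki67 (adjusted p = 0.116), Pax7 (0.0975), Myog (0.242), Actc1 (0.119), Atf3 (0.0806), Btg2 (0.0587), Adam17 (0.0809) and Notch3 (0.115), and no gene of the identity, mature fibre, respiratory chain, ribosome, spliceosome, chaperone or endothelial lists passed.

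Genes of cell division were the main group that fell. Of 109 measured genes of the G2 and M phases, 0 rose and 106 fell, and 106 had all adult arrays below all adolescent ones. Their median difference was -2.29, against 0.03 for all genes. Without adult replicate 1 the counts were 0 and 107 with a median of -2.68, and after quantile normalization 0 and 105 with -2.33. Cell division genes made up 184 of the 542 falls of at least 2-fold and 0 of the 89 rises, counting the 254 genes of the lists for G2 and M, S phase, histones and cycle regulators.

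Where the mean of the lower stage lay within the range of the receptor genes (below their 95th percentile), a difference gives only a lower bound on its size. This held for adult cells in Bub1, Ncapg, H2ac4, Prc1, Cip2a, Nuf2, Gen1, Kif14, Kif20b, Rad54l, Brca1, Fancb, Nrk, Asb4, Nrarp and Vcan, and for adolescent cells in Akr1c14, Greb1 and Cyp17a1. Mstn and Pgr lay within that range in both stages, so their differences are not read as bounds. The adult mean includes adult replicate 1, which was often higher. On adult replicates 2 and 3 the 95th percentile was 6.15 and 6.14. Top2a, Kif11, Kif20a, Kif23, Aspm, Racgap1, Rrm2, Dtl, Rbl1 and Pbk, among others, lay below it on both arrays. Their falls on those arrays are lower bounds too. The largest fall as measured was that of Top2a, the topoisomerase that untangles chromosomes before they part. It had 8.04, 5.82 and 5.42 in adult cells, against 9.99, 10.15 and 10.04 in adolescent cells (-3.63 ± 0.50). Bub1, of the spindle checkpoint, differed by -3.57 ± 0.54, the spindle motor gene Kif11 by -3.35 ± 0.54 and the proliferation marker Mki67 by -3.11 ± 0.57, and each of the 4 had adult replicate 1 highest among the adult arrays.

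Cdk1, the kinase that drives entry into mitosis, had 8.28, 6.51 and 6.27 in adult cells, against 10.20, 10.31 and 10.26 in adolescent cells. Adult replicate 1 lay about midway, and the groups were apart by nearly 2 units at the closest. The fit gave -3.24 ± 0.44 (9.43-fold lower, adjusted p = 0.000512). Bub1b, a kinase of the spindle checkpoint, had 6.83, 6.16 and 6.33 in adult cells, against 8.62, 8.81 and 8.86 in adolescent cells, and here the 3 adult arrays lay closer together. Its difference was -2.32 ± 0.17 (adjusted p = 9.88e-06), and Pbk, a mitotic kinase, fell by a like amount (-2.60 ± 0.19).

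Motors and cytokinesis genes behaved likewise. Kif20a, a kinesin of the late spindle, had 7.38, 5.47 and 5.23 in adult cells, against 8.92, 8.95 and 8.99 in adolescent cells (-2.93 ± 0.43). Kif23, Kif14 and Kif20b, other kinesins, differed by -2.90 ± 0.43, -1.88 ± 0.16 and -2.13 ± 0.19. Prc1 and Racgap1, which organise the central spindle, differed by -3.07 ± 0.46 and -2.94 ± 0.35. Aspm, which acts at spindle poles, had 6.88, 5.31 and 5.51 in adult cells, against 8.67, 8.73 and 8.75 in adolescent cells (-2.82 ± 0.31). All of these genes had adult arrays below adolescent arrays without overlap. For Kif20a, Kif23, Prc1, Racgap1 and Aspm, the choice among the largest falls required this. The cyclins Ccna2 (-2.94 ± 0.59) and Ccnb2 (-2.86 ± 0.49) and the kinetochore gene Nuf2 (-2.99 ± 0.36) fell too, and so did the condensin subunit Ncapg (-3.09 ± 0.34).

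Genes of DNA replication fell less far. Of 88 measured genes of S phase, 0 rose and 85 fell, with a median of -1.35 (0 and 84 after quantile normalization). Brca1, which repairs broken DNA during replication, had 5.86, 5.04 and 4.86 in adult cells, against 7.88, 7.11 and 7.16 in adolescent cells. The groups did not overlap, and adolescent replicate 1 stood above the other adolescent arrays. The difference was -2.13 ± 0.25 (adjusted p = 0.000231). Rad54l, of homologous recombination, and Fancb, of crosslink repair, fell by 1.94 ± 0.22 and 1.27 ± 0.15 on the log2 scale. E2f7, a repressor within the E2F family, had 6.61, 6.47 and 6.58 in adult cells, against 8.15, 7.69 and 7.80 in adolescent cells, so that adult replicate 1 stood close to the other adult arrays (-1.33 ± 0.11). Mcm5, of the replicative helicase, fell by 1.83 ± 0.29. Rrm2, the regulated subunit of ribonucleotide reductase, fell by 3.00 ± 0.46. Not counted in this list or the other cycle lists, Dtl, which targets licensing factors for degradation, fell by 2.85 ± 0.42. Gen1, a resolvase that is also outside them, fell by 2.44 ± 0.30.

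Of 29 measured replication-dependent histone genes, 0 rose and 23 fell (0 and 21), with a median of -0.88. H2ac4, which encodes a histone H2A, had 7.88, 3.96 and 3.40 in adult cells, against 8.49, 8.02 and 7.99 in adolescent cells. Adult replicate 1 was close to the lowest adolescent arrays, while adult replicates 2 and 3 were below the mean of the receptor genes (-3.08 ± 0.82, adjusted p = 0.0206). The call rested on the full set of arrays: leaving out any 1 array of either stage other than adult replicate 1 took the adjusted p to between 0.0527 and 0.0986. The linker histone gene H1f1 had 8.68, 6.91 and 6.84 in adult cells, against 9.93, 9.85 and 9.77 in adolescent cells (-2.37 ± 0.37), and H1f5 gave the same difference (-2.37 ± 0.42). Histone genes are near-identical copies, so a probe set may also read its relatives.

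Regulators of the cycle did not move as a block of inhibitors. Of 28 measured inhibitors and G1 cyclins, 2 rose and 13 fell (3 and 12 after quantile normalization, where the median was -0.15, against -0.38 as deposited). Btg2, an antiproliferative gene, had 11.35, 11.69 and 11.73 in adult cells, against 10.37, 10.82 and 10.82 in adolescent cells (0.92 ± 0.14, adjusted p = 0.000951). Rbl1, the pocket protein p107, had 7.57, 5.48 and 5.61 in adult cells, against 9.23, 8.40 and 8.39 in adolescent cells (-2.45 ± 0.42). The kinases Cdk2 (-1.09 ± 0.19) and Cdk6 (-0.81 ± 0.14) fell. The inhibitor Cdkn1c (p57) had 10.09, 8.23 and 8.44 in adult cells, against 9.96, 10.98 and 11.02 in adolescent cells. It passed (-1.73 ± 0.40, adjusted p = 0.0106), but adult replicate 1 lay above adolescent replicate 1, so the groups overlapped, and the adjusted p was 0.0541 without adult replicate 2 and 0.0537 without adult replicate 3. Cdkn1b (p27) did not pass (-0.18 ± 0.10). It did without adult replicate 1 (-0.26, adjusted p = 0.0336), but not when those arrays were quantile normalized (0.04, adjusted p = 0.743).

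Adult replicate 1 lay between the adolescent mean and the mean of adult replicates 2 and 3 for 104 of the 109 G2 and M genes. Its median difference from the adolescent mean over that list was -1.48, against -2.68 for adult replicates 2 and 3. Across the stages the list's median level was 8.73, 9.02 and 9.09 in fetal cells, 8.35, 8.16 and 8.11 in adolescent cells, 6.79, 5.53 and 5.55 in adult cells, and 5.89, 5.42 and 5.34 in aged cells. Adult replicates 2 and 3 thus fell within the range of the aged arrays, and adult replicate 1 lay between the aged and the adolescent arrays. On a scale where 0 is the mean of adult replicates 2 and 3 and 1 is the adolescent mean, adult replicate 1 stood at a median of 0.49 (quartiles 0.39 and 0.59) over the 184 cycle genes that fell at least 2-fold. It stood at 0.46 over the 358 other genes that fell as far, and at 0.16 (quartiles -0.08 and 0.36) over the 89 genes that rose at least 2-fold. For 36 of those 89 rises it was within 0.2 of adult replicates 2 and 3 on this scale, on either side. For 14 it lay more than 0.2 beyond them, farther from the adolescent mean. Of the 184 cycle genes 8 had it within 0.2. These genes were chosen by a fit that included adult replicate 1. A small difference passes more easily where that array lies near the other adult arrays. The positions are therefore partly set by the choice, and no conclusion is drawn from their contrast. They are also on the deposited scale, where bright genes lay low on adult replicates 2 and 3. After quantile normalization the median difference of G2 and M genes was -1.37 on adult replicate 1 and -2.8 on replicates 2 and 3. That of quiescence genes was 0.18 and 0.41, against 0.18 and 0.27 as deposited.

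**Figure D2:**
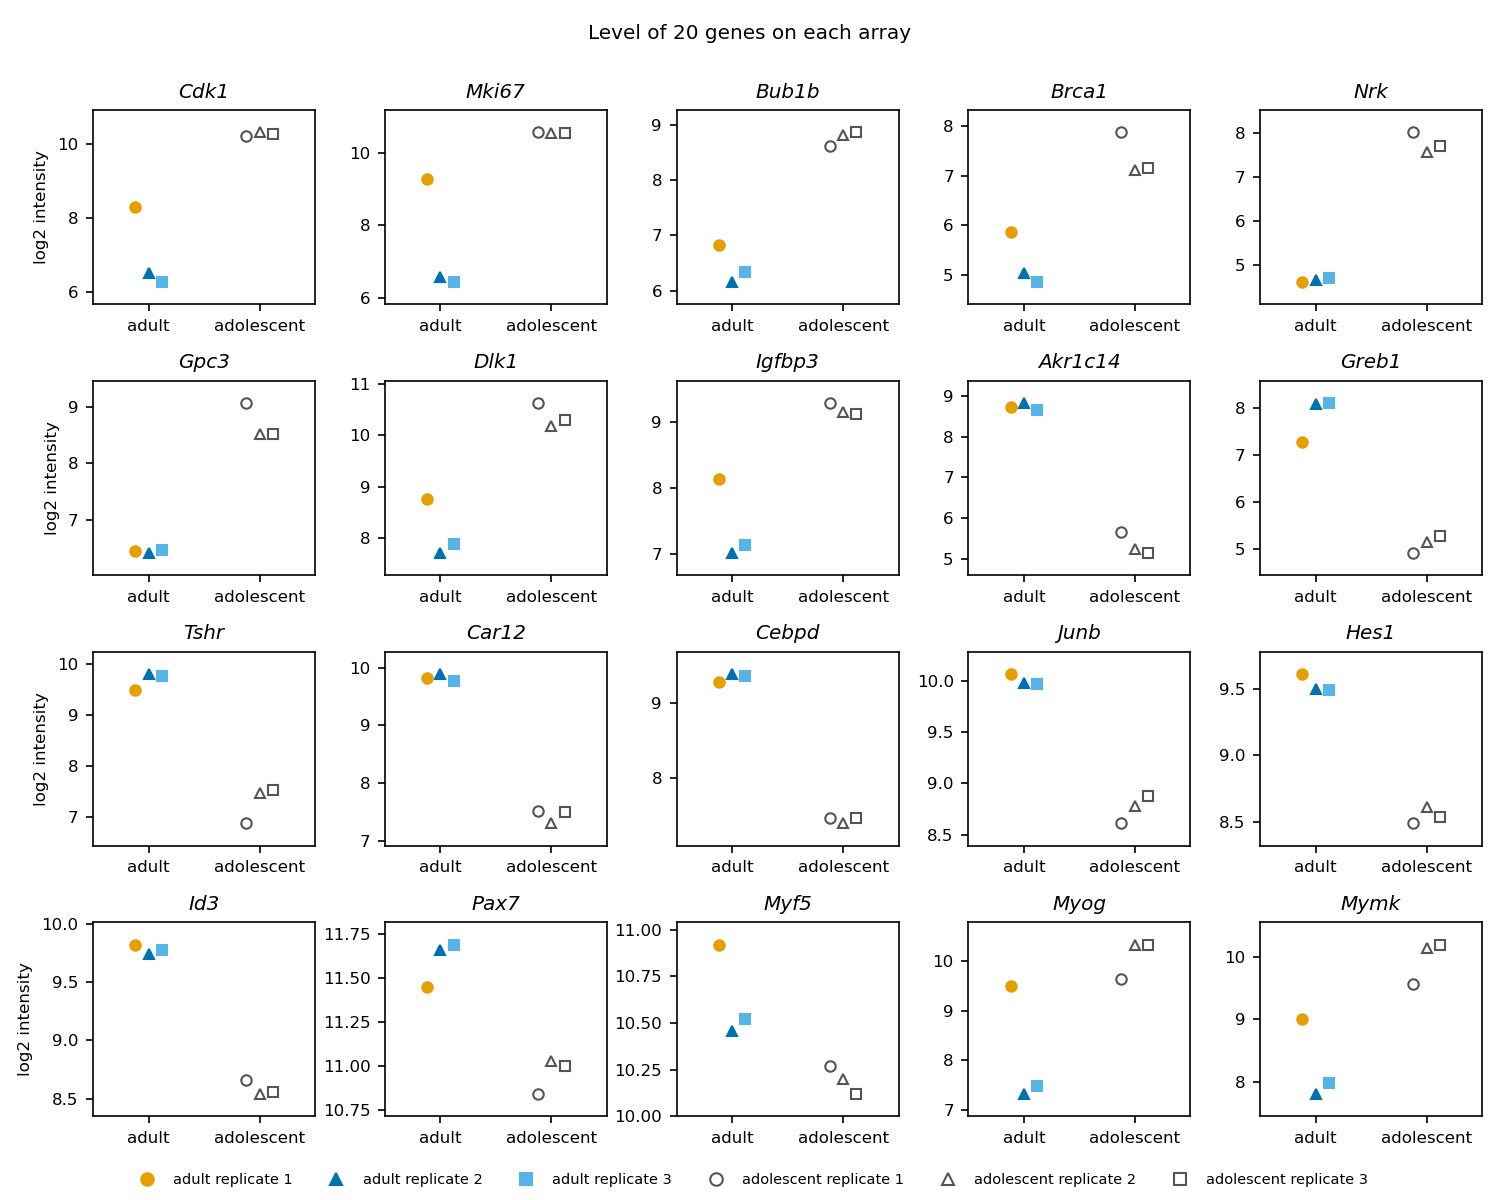
Log2 intensity (vertical axis, scaled for each gene) of 20 genes on the 3 adult arrays (filled, left) and the 3 adolescent arrays (open, right). Cdk1, Mki67, Myog and Mymk show adult replicate 1 between the groups, while Nrk, Gpc3, Akr1c14, Car12, Cebpd, Hes1 and Id3 show the 3 adult arrays at nearly the same level. Values are as deposited.

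Promoters of the cycle genes are shown because many of their regulators read short DNA words near the start site. CCAAT is bound by the factor NF-Y. The words TTTGAA and TTCGAA are forms of the cell cycle homology region (CHR) bound by the MuvB complexes, which repress these genes in resting cells. GGCGGGAA, TTTGGCGC and TTTCCCGC are forms of the E2F site, of which GGCGGGAA and TTTCCCGC can overlap on opposite strands. The 250 bases before each RefSeq start (GRCm38.p6) were searched on both strands. Of 98 windows from 89 of the G2 and M genes, 62.2% held CCAAT and 37.8% a CHR word, against 34.5% and 14.8% of 19177 windows of all measured genes with a promoter entry. Both words stood together in 28.6% of the G2 and M windows and in 5.35% of all windows. Of 83 windows from 71 of the S phase genes, 60.2% held CCAAT, so its excess was shared by both lists. An E2F word stood in 21.7% of them, against 3.76% of all windows, and a CHR word in 16.9%. A match is a description of the letters and not a bound site. The upstream windows of Cdk1 (chr10:69352913-69353162, minus strand), Top2a (chr11:99024190-99024439, minus strand), Mcm5 (chr8:75109259-75109508, plus strand) and E2f7 (chr10:110745189-110745438, plus strand) follow, 5′ to 3′ toward the start, with every match in capitals. Cdk1 has 3 CCAAT and 2 CHR matches, Top2a 6 and 4. Mcm5 has 2 CCAAT and 1 E2F match, and E2f7 likewise 2 and 1.
Cdk1: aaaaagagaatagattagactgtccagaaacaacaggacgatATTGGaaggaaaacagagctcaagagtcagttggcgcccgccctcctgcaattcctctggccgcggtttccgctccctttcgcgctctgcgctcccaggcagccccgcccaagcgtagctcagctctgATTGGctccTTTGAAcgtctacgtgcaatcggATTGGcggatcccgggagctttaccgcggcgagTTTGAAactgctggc
Top2a: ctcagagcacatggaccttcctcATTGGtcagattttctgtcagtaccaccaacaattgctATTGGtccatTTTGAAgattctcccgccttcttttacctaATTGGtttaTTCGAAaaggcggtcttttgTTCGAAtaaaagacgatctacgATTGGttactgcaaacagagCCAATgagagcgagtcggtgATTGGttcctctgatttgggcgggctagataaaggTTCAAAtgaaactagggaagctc
Mcm5: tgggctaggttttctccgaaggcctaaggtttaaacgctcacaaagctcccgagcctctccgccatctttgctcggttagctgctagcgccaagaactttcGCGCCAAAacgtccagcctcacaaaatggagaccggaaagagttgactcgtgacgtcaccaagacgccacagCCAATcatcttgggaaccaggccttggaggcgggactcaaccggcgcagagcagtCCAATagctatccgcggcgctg
E2f7: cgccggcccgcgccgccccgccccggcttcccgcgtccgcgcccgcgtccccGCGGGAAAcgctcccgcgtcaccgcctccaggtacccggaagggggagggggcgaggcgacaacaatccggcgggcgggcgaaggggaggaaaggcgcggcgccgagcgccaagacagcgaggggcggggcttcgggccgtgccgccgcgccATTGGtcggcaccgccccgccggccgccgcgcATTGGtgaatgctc

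Outside the cycle lists, many of the largest falls were still of genes known from dividing cells, such as Cip2a, an inhibitor of the phosphatase PP2A (-3.04 ± 0.34), Stmn1, which destabilises microtubules (-2.65 ± 0.35), Knstrn, of the spindle (-2.60 ± 0.29), and Cks2, a subunit of Cdk1 complexes (-2.42 ± 0.55). Others were of fetal and neonatal growth. Nrk, an X-linked kinase gene best known in the placenta, had 4.62, 4.67 and 4.70 in adult cells, against 8.02, 7.58 and 7.71 in adolescent cells. The 3 adult arrays lay close together and within the range of the receptor genes, so the fall was at least 8.64-fold and ended at array background (-3.11 ± 0.12, adjusted p = 8.14e-08). Gpc3, a glypican that restrains growth, had 6.46, 6.43 and 6.48 in adult cells, against 9.06, 8.51 and 8.51 in adolescent cells (-2.24 ± 0.14). Adult replicate 1 was at the level of the other adult arrays for both genes, as it was for 8 of the 184 cycle genes above.

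Of 24 genes that are imprinted or serve fetal growth, 0 rose and 14 fell, with a median of -0.57 (1 and 12 after quantile normalization). Dlk1, a Notch-like ligand, had 8.75, 7.72 and 7.89 in adult cells, against 10.62, 10.18 and 10.29 in adolescent cells (-2.24 ± 0.21). Slc38a4, an amino acid transporter, had 7.30, 6.12 and 6.25 in adult cells, against 9.05, 8.75 and 8.75 in adolescent cells (-2.29 ± 0.23). Asb4, a ubiquitin ligase adaptor, fell to 5.18, 5.27 and 5.10 in adult cells, against 6.32, 6.10 and 6.14 in adolescent cells (at least 2.01-fold lower, since the adult arrays were within the receptor range). Each of these had its 3 adult arrays below all adolescent arrays, which the choice of Dlk1 and Slc38a4 among the largest falls required.

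The insulin-like growth factor axis changed in a few members. Of 23 measured, 3 rose and 6 fell (4 and 5). Igf2, the growth factor itself, had 10.23, 9.91 and 9.85 in adult cells, against 10.94, 10.87 and 10.93 in adolescent cells (-0.92 ± 0.11, adjusted p = 0.000248). The binding protein gene Igfbp3 had 8.14, 7.02 and 7.13 in adult cells, against 9.29, 9.16 and 9.12 in adolescent cells (-1.76 ± 0.23). Irs2, an adaptor of the insulin receptor, was higher, with 8.76, 8.95 and 9.06 in adult cells, against 8.10, 8.08 and 8.17 in adolescent cells (0.81 ± 0.13). Htra1, a secreted protease that cleaves binding proteins, fell (-0.83 ± 0.12).

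The largest rises included genes of hormone metabolism, hormone response and a hormone receptor. Akr1c14, a hydroxysteroid dehydrogenase that acts on androgens and progestins, had 8.74, 8.83 and 8.65 in adult cells, against 5.65, 5.24 and 5.15 in adolescent cells. The adolescent mean lay within the range of the receptor genes and all adult arrays about 3 units above the adolescent arrays (3.40 ± 0.20, at least 10.5-fold, adjusted p = 1.60e-06). Greb1, a target of oestrogen and androgen receptors, had 7.27, 8.08 and 8.10 in adult cells, against 4.93, 5.16 and 5.29 in adolescent cells, again with the adolescent arrays at receptor level (2.69 ± 0.26). Tshr, the thyrotropin receptor, had 9.48, 9.80 and 9.75 in adult cells, against 6.87, 7.47 and 7.52 in adolescent cells (2.39 ± 0.17). Dio2, which makes active thyroid hormone in tissues, rose by a smaller amount, with 7.50, 7.62 and 7.76 in adult cells, against 6.76, 6.55 and 6.62 in adolescent cells (0.98 ± 0.13).

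Of 29 genes of sex steroid and thyroid receptors, enzymes and targets, 8 rose and 1 fell (12 and 1 after quantile normalization), with a median of 0.17. The steroid receptors Esr1 and Pgr did not pass with all arrays. Esr1, the oestrogen receptor alpha gene, had 9.92, 9.85 and 9.88 in adult cells, against 10.00, 10.09 and 10.16 in adolescent cells (-0.20 ± 0.11, adjusted p = 0.191). The progesterone receptor gene Pgr stayed near the receptor genes' level, with 5.18, 5.46 and 5.34 in adult cells, against 5.06, 5.00 and 5.21 in adolescent cells (0.23 ± 0.12), and passed without adult replicate 1 (0.31, adjusted p = 0.0392), but not when those arrays were quantile normalized (0.09, adjusted p = 0.472). Cyp17a1, the enzyme that commits steroids to androgens, rose (1.47 ± 0.14), its adolescent values of 4.94, 5.09 and 4.94 being at receptor level. Fetal Akr1c14 averaged 4.33 ± 0.43 and aged Akr1c14 9.66 ± 0.22 (SD, n = 3 each), so the adult level of 8.74 ± 0.09 lay between adolescent (5.35 ± 0.27) and aged cells.

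Other large rises were of genes with varied roles, described here from the largest rises over all genes. Car12, a cell surface carbonic anhydrase, had 9.82, 9.89 and 9.76 in adult cells, against 7.52, 7.31 and 7.50 in adolescent cells (2.38 ± 0.11, adjusted p = 2.34e-07). P2ry14, a receptor for nucleotide sugars, had 9.33, 8.69 and 8.82 in adult cells, against 6.61, 6.45 and 6.53 in adolescent cells (2.42 ± 0.14), and adult replicate 1 was the highest array. Slco2a1, a prostaglandin transporter, had 8.57, 9.79 and 9.77 in adult cells, against 6.85, 6.81 and 6.76 in adolescent cells (2.57 ± 0.30). The 3 genes had adult arrays well above all adolescent arrays, and their choice among the largest rises required a lack of overlap.

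Hs6st3, a heparan sulphate sulphotransferase, had 8.35, 8.59 and 8.81 in adult cells, against 6.36, 6.74 and 6.65 in adolescent cells (2.00 ± 0.14). Ccl19, a chemokine, had 9.22, 8.90 and 9.0 in adult cells, against 7.55, 7.30 and 7.34 in adolescent cells (1.64 ± 0.14). Mt1, a metallothionein that binds zinc and copper, had 10.62, 11.39 and 11.39 in adult cells, against 9.98, 9.34 and 9.50 in adolescent cells (1.52 ± 0.22). All of these were without overlap, which their choice among the largest rises required. Adult replicate 1 was the lowest adult array for Hs6st3 and Mt1 and the highest for Ccl19. Gabre, a subunit of GABA-A receptors (2.25 ± 0.13), Gpnmb, a membrane glycoprotein (2.11 ± 0.16), Dbx1, a homeobox gene known from the spinal cord (2.51 ± 0.14), Ephx1, an epoxide hydrolase (1.51 ± 0.11), and Bnc2, a zinc finger gene (1.47 ± 0.12), rose as well.

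**Figure D3:**
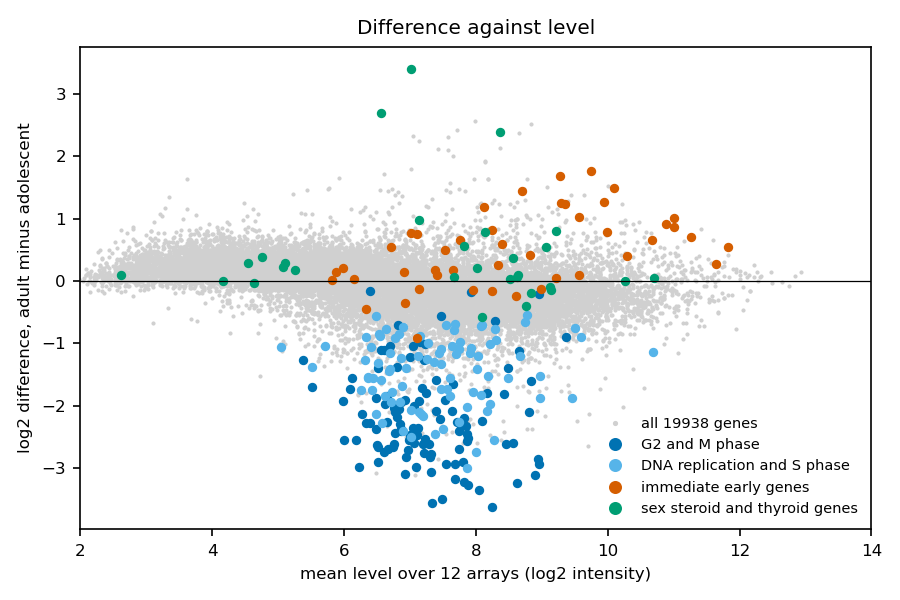
Log2 difference of adult minus adolescent cells (vertical axis) against the mean log2 intensity over 12 arrays (horizontal axis), for 19938 genes (grey) and 4 gene lists (colours). Many genes of the G2 and M phases lie below -2, Akr1c14 stands at 3.40 as the largest rise of the lists shown, and the grey cloud tilts downward with level.

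Immediate early genes respond within minutes to growth factors and stress. Of 45 measured, 21 rose, 2 fell and the others did not pass, with a median of 0.49, against 0.03 for all genes (25 and 2 with a median of 0.64 after quantile normalization). Other genes at their level lay low on adult replicates 2 and 3. Nr4a1, an orphan nuclear receptor gene, had 10.17, 10.91 and 10.96 in adult cells, against 8.80, 8.96 and 9.01 in adolescent cells (1.76 ± 0.25). Atf3, a stress factor of the ATF family, had 9.0, 10.20 and 10.23 in adult cells, against 8.09, 8.02 and 8.25 in adolescent cells (1.69 ± 0.28). Both stood highest on adult replicates 2 and 3, with adult replicate 1 still above every adolescent array.

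Junb, a subunit of the AP-1 factor, had 10.07, 9.98 and 9.97 in adult cells, against 8.61, 8.78 and 8.88 in adolescent cells (1.25 ± 0.16, adjusted p = 0.000413). Jund, another AP-1 subunit, had 10.49, 10.62 and 10.57 in adult cells, against 9.25, 9.32 and 9.35 in adolescent cells (1.26 ± 0.17). For both, the 3 adult arrays lay close together. Zfp36, which destabilises messenger RNAs with AU-rich elements and keeps satellite cells from activating, had 10.45, 11.14 and 11.02 in adult cells, against 9.19, 9.51 and 9.43 in adolescent cells (1.49 ± 0.19), and its relative Zfp36l1 rose (0.78 ± 0.09). Fos (0.86, adjusted p = 0.00727) and Egr1 (0.55, adjusted p = 0.00194), picked after their values were seen, rose less. Aged arrays had list medians of 9.46, 9.19 and 9.24, against 8.67, 8.76 and 8.71 on the adult arrays.

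Cebpd and Socs3 had the smallest p of the JAK-STAT list. Cebpd, a factor of acute phase responses, had 9.28, 9.39 and 9.36 in adult cells, against 7.47, 7.40 and 7.47 in adolescent cells, with the arrays of each stage close together (1.90 ± 0.14, adjusted p = 9.88e-06). Socs3, an inhibitor of JAK-STAT signals, had 9.68, 9.90 and 9.80 in adult cells, against 8.67, 8.79 and 8.83 in adolescent cells (1.03 ± 0.18). Of 42 genes of the JAK-STAT pathway 3 rose and 2 fell as deposited with a median of 0.03, and 10 rose and 0 fell after quantile normalization. Of 22 circadian clock genes, 5 rose and 0 fell (6 and 0), among them Nr1d1, a clock repressor (0.66 ± 0.12), Bhlhe40 (1.30 ± 0.25) and Per1 (0.80 ± 0.17). The time of day of each collection is not given.

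Genes tied to quiescence held more rises than falls. Of 40 measured, 13 rose, 4 fell and the others did not pass, with a median of 0.19 (18 and 2 with 0.31 after quantile normalization). Hes1, the Notch target that holds cells undifferentiated, had 9.61, 9.50 and 9.49 in adult cells, against 8.49, 8.61 and 8.54 in adolescent cells (0.99 ± 0.10, adjusted p = 0.000134). Gas6, a ligand of TAM receptors, had 9.71, 9.63 and 9.63 in adult cells, against 8.94, 8.73 and 8.74 in adolescent cells (0.86 ± 0.09). Cebpb, which opposes differentiation, had 7.79, 8.50 and 8.46 in adult cells, against 7.22, 7.20 and 7.11 in adolescent cells (1.07 ± 0.16). The first 2 were level across the 3 adult arrays, and Cebpb was lowest on adult replicate 1.

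Notch3, a receptor, rose to 10.83, 10.91 and 10.94 in adult cells, against 10.23, 10.30 and 10.35 in adolescent cells (0.60 ± 0.11), and Spry1 rose by 0.44 ± 0.09. The calcitonin receptor gene Calcr, which retains cells in the niche, was alike in level, with 11.01, 10.94 and 10.93 in adult cells, against 10.90, 10.86 and 10.89 in adolescent cells (0.08 ± 0.09, adjusted p = 0.515). Col15a1, a basement membrane collagen, fell (-0.93 ± 0.16), and so did Rgs5, a regulator of G proteins (-0.74 ± 0.22), although Rgs5 did not pass after quantile normalization (adjusted p = 0.0948) or without any 1 of adult replicates 2 and 3 and adolescent replicates 1 and 3 (0.0510 to 0.145).

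In the Notch pathway as a whole 5 of 31 measured genes rose and 9 fell (10 and 8 after quantile normalization). Nrarp, a Notch feedback inhibitor, had 5.89, 5.53 and 5.78 in adult cells, against 6.97, 6.81 and 6.89 in adolescent cells (-1.16 ± 0.11), the opposite direction to Hes1. The ligand Dll4 (-0.79 ± 0.13) and the sheddase Adam17 (-0.73 ± 0.11) fell. Hes1 and Nrarp are both Notch targets, and the 3 adult arrays lay on the same side of the adolescent arrays for each.

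Of 48 measured genes in the TGF-beta and BMP pathways, 7 rose and 4 fell (13 and 1 after quantile normalization). The BMP targets Id1 and Id3, which block bHLH factors, rose on all adult arrays. Id1 had 9.84, 9.73 and 9.82 in adult cells, against 8.83, 8.64 and 8.68 in adolescent cells (1.08 ± 0.14), and Id3 had 9.82, 9.74 and 9.77 in adult cells, against 8.66, 8.54 and 8.56 in adolescent cells (1.19 ± 0.11). The ligand Bmp6 had 10.86, 10.86 and 10.90 in adult cells, against 10.27, 9.70 and 9.78 in adolescent cells (0.95 ± 0.14). Mstn, myostatin, was dim and lower, with 4.52, 4.53 and 4.71 in adult cells, against 5.30, 5.37 and 5.38 in adolescent cells (-0.76 ± 0.09). All of its values lay within the range of the receptor genes. Adult replicate 1 stood with the other adult arrays for each of these genes.

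Wnt and growth factor receptor genes passed in both directions. Over all genes 4.56% rose and 15.2% fell (9.97% and 9.93% after quantile normalization). The counts are therefore not read as a result about either list. Of 51 Wnt genes 3 rose and 5 fell (5 and 4), with Wnt4 higher (0.94 ± 0.22, with an adjusted p of 0.0524 without adult replicate 2 and 0.0505 without adult replicate 3) and Sfrp2, a secreted antagonist, lower (-1.23 ± 0.20). Of 41 genes of FGF, EGF and HGF receptor signalling 2 rose and 7 fell (6 and 6). Ret, the receptor of GDNF family ligands, had 9.15, 8.89 and 8.95 in adult cells, against 9.81, 10.17 and 10.24 in adolescent cells (-1.08 ± 0.13). Its co-receptor gene Gfra1 had 9.45, 8.99 and 9.04 in adult cells, against 10.07, 10.30 and 10.35 in adolescent cells (-1.08 ± 0.13). The difference was the same for both genes, with adult replicate 1 the highest adult array for both.

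Of 25 genes of satellite cell identity 3 rose and 3 fell, with a median of 0.04. After quantile normalization 6 rose and 2 fell with a median of 0.09. Without adult replicate 1, 6 rose and 8 fell, against 25.4% and 28.6% of all genes. Pax7, by whose reporter the cells of both stages were sorted, had 11.45, 11.66 and 11.69 in adult cells, against 10.84, 11.03 and 11 in adolescent cells (0.64 ± 0.10, 1.56-fold, adjusted p = 0.00135). Myf5, a myogenic determination factor, had 10.92, 10.46 and 10.52 in adult cells, against 10.27, 10.20 and 10.12 in adolescent cells (0.44 ± 0.12, adjusted p = 0.0239), and did not pass without adolescent replicate 2 (0.0686) or 3 (0.0928). Both had no overlap, and Sdc4, a syndecan, rose by 0.68 ± 0.13. Msc, a bHLH repressor known from muscle precursors, fell (-0.71 ± 0.16), and so did Caprin1, an RNA-binding protein (-0.56 ± 0.12).

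Pax3 (0.26 ± 0.11), Myod1 (-0.10 ± 0.11), the surface markers Cd34 (0.30 ± 0.12) and Vcam1 (0.31 ± 0.12) did not pass. After quantile normalization Pax3 (adjusted p = 0.0357) and Vcam1 (adjusted p = 0.0133) did. The levels of Pax7, Myf5, Cd34, Vcam1 and Calcr on all 6 arrays were above 10, so the defining markers of satellite cells were present in both stages.

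Genes of commitment and fusion were lower, unevenly across the adult arrays. Of 37 measured, 4 rose and 14 fell (4 and 12), with a median of -0.35. Myog, the factor of terminal differentiation, had 9.50, 7.32 and 7.49 in adult cells, against 9.64, 10.33 and 10.33 in adolescent cells. Adult replicate 1 was close to adolescent replicate 1, while the other adult arrays lay about 2 units below it (-2.00 ± 0.44, adjusted p = 0.00828). Mymk, which fuses myoblasts, had 9.01, 7.80 and 7.97 in adult cells, against 9.56, 10.15 and 10.20 in adolescent cells (-1.71 ± 0.29). Actc1, the cardiac actin of young muscle cells, had 10.50, 9.05 and 8.91 in adult cells, against 11.01, 11.76 and 11.79 in adolescent cells (-2.03 ± 0.35). The 3 genes shared a pattern in which replicate 1 lay closest to the other stage in both groups.

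Receptor subunits of the neuromuscular junction fell, with Chrnd at 6.41, 5.76 and 6.10 in adult cells, against 7.79, 7.58 and 7.54 in adolescent cells (-1.55 ± 0.19), and Chrng by 0.84 ± 0.12 on the log2 scale. Myf6 did not pass (-0.16 ± 0.33), with 7.63, 6.78 and 6.72 in adult cells, against 7.04, 7.26 and 7.31 in adolescent cells.

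Of 36 genes of the mature fibre, 1 rose and 14 fell (2 and 12), with a median of -0.73, and summed intensity over the list was 11039, 8059 and 8271 in adult cells, against 13362, 17118 and 17269 in adolescent cells. Pvalb, a calcium buffer of fast fibres, had 6.87, 7.55 and 7.61 in adult cells, against 8.55, 9.98 and 9.94 in adolescent cells (-2.15 ± 0.35). Ryr1, the calcium release channel, had 7.59, 6.71 and 6.73 in adult cells, against 8.17, 8.27 and 8.29 in adolescent cells (-1.23 ± 0.18). Myh4 and Myh1, fast myosins, fell by 1.21 ± 0.18 and 0.80 ± 0.12. In sorted pools, fewer cells or fragments of a type and less RNA per cell cannot be told apart. The part of fibre RNA in the commitment list was not tested.

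**Figure D4:**
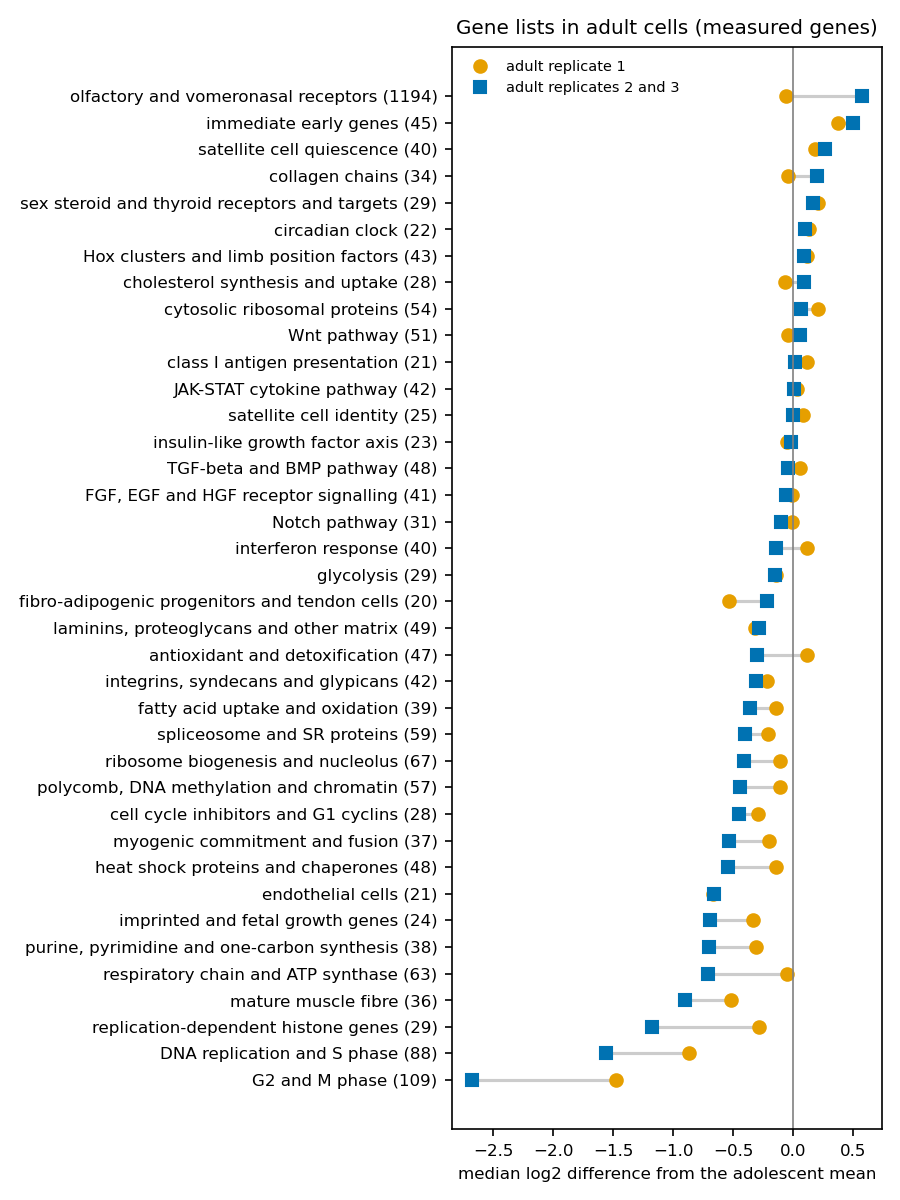
Median log2 difference from the adolescent mean (horizontal axis) over the measured genes of each list (number in brackets), for adult replicate 1 (circles) and for the mean of adult replicates 2 and 3 (squares). Values are as deposited. The 2 symbols lie close together for quiescence, steroid, matrix and endothelial genes and lie far apart for G2 and M genes (-1.48 and -2.68), histones (-0.28 and -1.18) and the respiratory chain (-0.05 and -0.71).

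Respiratory chain genes were lower mainly on adult replicates 2 and 3. Of 63 genes of the respiratory chain and ATP synthase, 0 rose and 29 fell, with a median of -0.51 (0 and 21 with -0.32 after quantile normalization, and 0 and 58 without adult replicate 1). The median difference from the adolescent mean was -0.05 on adult replicate 1, against -0.71 on adult replicates 2 and 3, where genes of that brightness lay about 0.35 low in general. Sdhd, of succinate dehydrogenase, had 8.73, 8.06 and 8.18 in adult cells, against 9.19, 9.37 and 9.50 in adolescent cells (-1.03 ± 0.15). Ndufb6, of complex I, had 9.67, 9.35 and 9.32 in adult cells, against 10.14, 10.84 and 10.93 in adolescent cells (-1.19 ± 0.21). Both had adult arrays below all adolescent arrays.

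Of 38 genes of nucleotide and one-carbon synthesis, 0 rose and 23 fell, with a median of -0.56 (1 and 16 after quantile normalization). The median difference from the adolescent mean was -0.31 on adult replicate 1 and -0.7 on replicates 2 and 3. After quantile normalization it was -0.26 and -0.4. Ctps, which makes CTP, had 7.51, 7.06 and 7.13 in adult cells, against 8.27, 8.06 and 8.08 in adolescent cells (-0.90 ± 0.12). Nt5e, the surface enzyme CD73, had 7.31, 6.37 and 6.44 in adult cells, against 8.05, 8.58 and 8.60 in adolescent cells (-1.70 ± 0.26). Mthfd1l, of mitochondrial folate metabolism, fell (-0.92 ± 0.11).

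Several lists of bright genes depended on the scale. Ribosome biogenesis had 0 of 67 up and 24 down as deposited, and 3 and 6 after quantile normalization. The spliceosome had 1 of 59 up and 26 down, against 3 and 12 on the other scale, and antioxidant genes 5 of 47 up and 13 down, against 8 and 5. Dkc1, the pseudouridine synthase of small nucleolar RNPs, fell on both scales (-0.75 ± 0.13, and -0.49 after quantile normalization), as did the splicing factor genes Prpf31 (-0.60 ± 0.09, and -0.33) and Snrpe (-0.70 ± 0.13, and -0.52). Ddx21, a nucleolar helicase, fell as deposited (-0.47 ± 0.10) and did not pass after quantile normalization (adjusted p = 0.0526). Of 54 cytosolic ribosomal protein genes 3 rose and 0 fell (12 and 0 after quantile normalization), for instance Rpl24 (0.41 ± 0.10), which did not pass without adolescent replicate 3 (adjusted p = 0.0561).

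Of 48 heat shock and chaperone genes, 3 rose and 22 fell (3 and 15), including subunits of the TRiC chaperonin, Cct7 (-0.64 ± 0.10) and Cct3 (-0.62 ± 0.10), and Hspd1, the mitochondrial chaperonin (-0.65 ± 0.12). Of 57 chromatin genes, 3 rose and 22 fell (11 and 17). Dnmt1, the maintenance DNA methyltransferase, had 8.22, 7.74 and 7.75 in adult cells, against 9.39, 8.95 and 8.97 in adolescent cells (-1.20 ± 0.15). Hmgb2, a chromatin protein of dividing cells, had 7.24, 6.89 and 7.0 in adult cells, against 8.62, 8.95 and 8.88 in adolescent cells (-1.77 ± 0.17). Cbx7, a polycomb subunit, rose to 8.61, 8.90 and 8.86 in adult cells, against 7.85, 7.79 and 7.78 in adolescent cells (0.98 ± 0.12). The direction of these 3 genes was the same on every adult array.

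**Figure D5:**
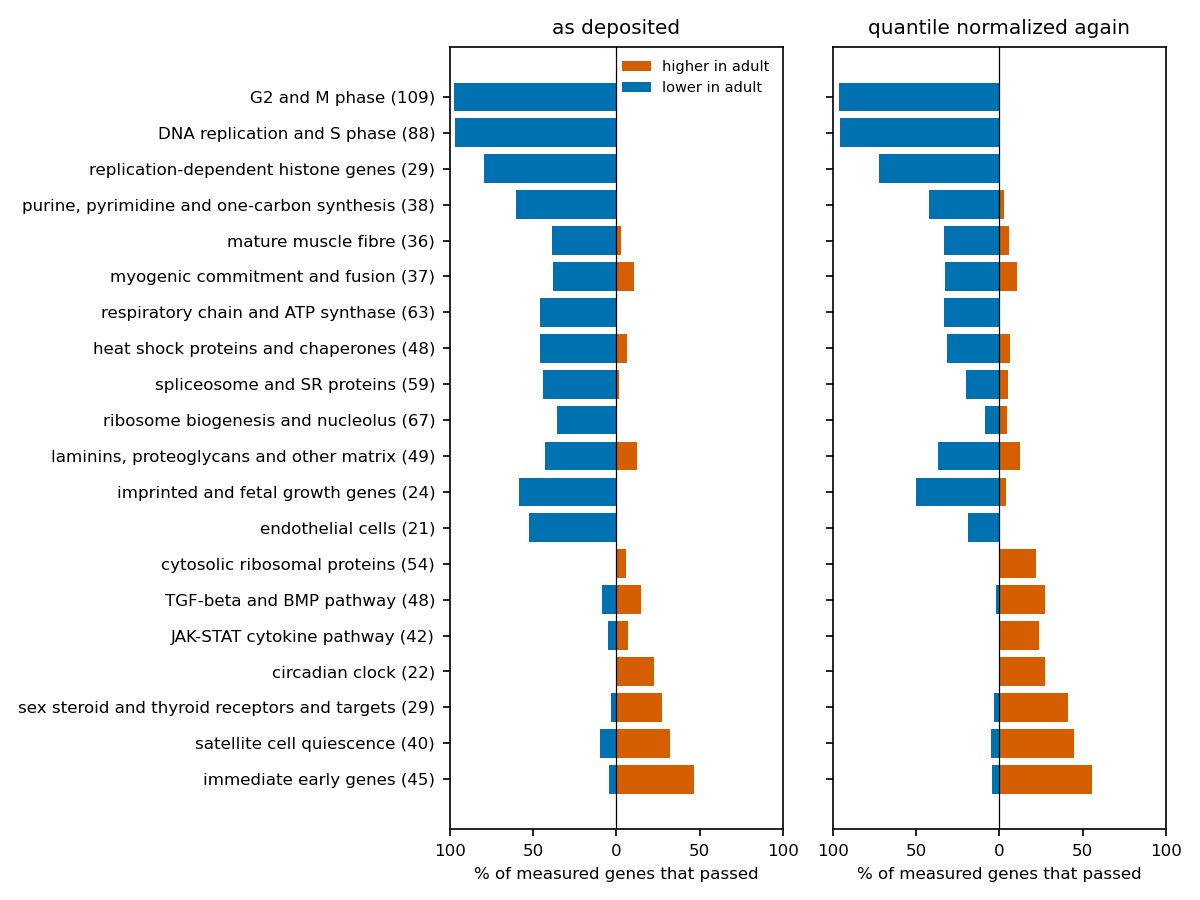
Share of the measured genes of 20 lists (number in brackets) that rose (orange, right) or fell (blue, left) in adult cells, with the values as deposited (left panel) and after repeated quantile normalization (right panel). Cell cycle lists keep their length (106 and 105 of 109 G2 and M genes), while ribosome biogenesis shortens to 6 falls after quantile normalization, against 24 as deposited.

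Matrix genes moved in both directions. Of 49 laminins, proteoglycans and other matrix genes, 6 rose and 21 fell, with a median of -0.33 (6 and 18 with -0.15 after quantile normalization). Vcan, a proteoglycan of growing tissue, had 6.02, 5.60 and 5.70 in adult cells, against 7.65, 6.98 and 7.09 in adolescent cells (-1.47 ± 0.17). Lamb1, a laminin chain, had 7.51, 7.27 and 7.36 in adult cells, against 8.54, 8.65 and 8.85 in adolescent cells (-1.30 ± 0.13). Ogn, a small leucine-rich proteoglycan, was higher, with 11.12, 10.55 and 10.47 in adult cells, against 9.64, 9.39 and 9.40 in adolescent cells (1.24 ± 0.15). Adult replicate 1 was the highest adult array for all 3 genes.

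Of 34 collagen chains, 1 rose and 8 fell, although the median was 0.10. After quantile normalization 4 rose and 5 fell. Without adult replicate 1, 10 rose and 10 fell, against 25.4% and 28.6% of all genes. Col1a2 had 7.54, 7.93 and 7.90 in adult cells, against 9.01, 9.28 and 9.33 in adolescent cells (-1.42 ± 0.13), and Col1a1 fell by 0.99 ± 0.17. Col4a2, of basement membrane, fell by 0.90 ± 0.11. Among 42 adhesion genes 3 rose and 14 fell (3 and 9), with rises of Cdh4, a cadherin (1.19 ± 0.13), and the integrin subunit Itgb5 (0.76 ± 0.09) and a fall of Mcam (-1.25 ± 0.16). Of all genes with a mean level of 8 to 9, 28.4% fell as deposited and 13.9% after quantile normalization.

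Markers of other cell types did not move as 1 group. Of 21 endothelial markers, 0 rose and 11 fell (0 and 4 after quantile normalization), and 20 had adult arrays below all adolescent arrays, against 22.4% of all genes. Of genes with a mean level of 7 to 8, 26.0% fell as deposited and 15.2% after quantile normalization. The summed intensity of the endothelial markers was 4448, 4273 and 4312 in adult cells, against 9318, 6269 and 6452 in adolescent cells. Esam, of endothelial junctions, had 6.81, 7.04 and 7.07 in adult cells, against 8.42, 7.82 and 7.91 in adolescent cells (-1.08 ± 0.20), and 0 of the 21 markers had a mean over 12 arrays within the receptor range. Of 20 markers of fibro-adipogenic progenitors and tendon cells, which include Col1a1 and Col1a2, 1 rose and 5 fell (1 and 3), with summed intensities of 8450, 8736 and 8876 in adult cells, against 8550, 9747 and 9632 in adolescent cells. The part of endothelial or fibroblast RNA in the falls of matrix genes was not tested.

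Of 25 macrophage markers 0 rose and 0 fell in limma's fit (3 had an unadjusted p under 0.05), 0 rose and 2 fell after quantile normalization, and their summed intensity was 2287, 4150 and 4204 in adult cells, against 3194, 2515 and 2576 in adolescent cells. Cd74, the class II invariant chain, had 7.34, 9.03 and 8.88 in adult cells, against 7.63, 7.42 and 7.47 in adolescent cells (0.91 ± 0.45, adjusted p = 0.157). Without adult replicate 1, 8 of the 25 macrophage markers rose, against 25.4% of all genes and 930 of the 1194 receptor genes. Of 14 lymphocyte markers 0 passed in limma's fit of all arrays (5 had an unadjusted p under 0.05), 1 rose after quantile normalization, and 11 of the 14 had a mean over 12 arrays within the receptor range. Of 10 glial markers 0 rose and 2 fell (1 and 4), of 17 smooth muscle and pericyte markers 1 rose and 4 fell (1 and 2), of 16 neutrophil and mast cell markers 1 rose and 1 fell (0 and 1), and of 5 erythroid markers 0 rose and 1 fell (0 and 1). Of 10 housekeeping genes 0 rose and 4 fell, with a median of -0.44 (2 falls with -0.25 after quantile normalization).

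In several further lists the balance of rises and falls depended on the scale. Over all genes 4.56% rose and 15.2% fell (9.97% and 9.93% after quantile normalization), and 28.4% of genes at a mean level of 8 to 9 fell as deposited. The counts that follow are not read as results about these lists. Of 40 interferon response genes 1 rose and 2 fell as deposited, against 7 and 1 after quantile normalization. Of 21 class I antigen presentation genes 2 rose and 2 fell (3 and 1). Hox genes and limb position factors, 43 in all, gave 2 rises and 3 falls (9 and 1), with Hoxc6 higher (0.61 ± 0.16) and Hoxd8 lower (-0.61 ± 0.15). Each lost its call without adult replicate 2 or 3 and without adolescent replicate 2, and Hoxc6 also without adolescent replicate 3 (adjusted p 0.0511 to 0.0808 for Hoxc6 and 0.0541 to 0.0751 for Hoxd8). Of 29 glycolysis genes 3 rose and 9 fell (6 and 6 after quantile normalization), with Pgk1 lower (-1.11 ± 0.18). Of 39 fatty acid genes 1 rose and 14 fell (5 and 8), with Fabp5, a fatty acid carrier, lower (-1.25 ± 0.24). Of 28 cholesterol genes 2 rose and 3 fell (5 and 1), and Scd1, a desaturase, had 11.05, 10.82 and 10.79 in adult cells, against 10.49, 10.09 and 10.23 in adolescent cells (0.62 ± 0.13).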

How the data were processed

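Satellite cells of 4 stages were measured on 12 single-colour Affymetrix arrays, and 3 adult and 3 adolescent arrays are compared. Per the submitters' processing notes, the authors used Affymetrix Expression Console 1.2.1.20 and RMA, and the log2 values they deposited were used as given. A genome build is not given in the sources used here. Of 35556 probe sets, 21789 had 1 symbol in the platform annotation, 1621 had several and 12146 had none. The probe set with the highest mean over 12 arrays stood for each of 19938 genes (999 had several).

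One model with 4 stage means was fitted to all 12 arrays by limma 3.58.1 (lmFit and eBayes) in R 4.3.3, with 8 residual degrees of freedom, and every adjusted p in the text comes from limma with Benjamini-Hochberg adjustment over all genes. Log2 differences of 1 are 2-fold. The script was first tested on simulated data.

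The members and the 45 lists, with 1573 distinct measured genes (1707 of 1877 names matched), were chosen with earlier results of these data known. Named are the 25 largest rises, the 25 largest falls and the 25 largest falls outside the cycle lists, among genes that passed without overlap and whose higher stage averaged 6 or more, then up to 4 members a list by smallest p, and a set of followed genes. The first 3 groups hold no predicted genes, RIKEN clones, small RNAs or chemosensory or antigen receptor genes, and not all genes so named are printed. A level is said to be within the receptor range where it lay below the 95th percentile of the olfactory and vomeronasal receptor genes.

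Across genes, the deviations of same-numbered adult and adolescent arrays from their own stage's mean correlated at 0.362, 0.317 and 0.239. Every same-numbered pair thus exceeded 0.1, the rule for reading the numbers as pairs, but unlike numbers (2 with 3) gave 0.240 and 0.293 as well. The rule therefore cannot tell pairing by number from a contrast of replicate 1 with replicates 2 and 3. The labels state no pairing. The main fit leaves the replicate number out, and the replicate block is an alternative. The alternatives were repeated quantile normalization, centring, a minimum level, averaging the probe sets of a gene, using every probe set, fitting adult and adolescent arrays alone, trended and robust variances, array weights, the replicate block, averaging replicates 2 and 3 of each stage, and leaving out each array. Centring on the median of all probe sets, quantile normalization without adult replicate 1, and the list counts under these settings were added after the data were seen.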

Additional observations from a re-analysis of the deposited data

How the results depend on the processing

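The counts of genes that passed moved with the processing, and their cause was not tested unless fewer arrays or genes explain it. Set against 909 rises and 3032 falls, repeated quantile normalization gave 1988 and 1980, and centring each array on its median over genes 2233 and 2076. Centring on the median of all probe sets gave 517 and 4084, so that 11.2% of calls were rises, against 23.1% as deposited, 50.1% after quantile normalization and 51.8% after centring on genes. A fit of the 6 arrays alone, with fewer arrays, gave 447 and 1698, averaging replicates 2 and 3 of each stage 76 and 247, and array weights, which weighted adult replicate 1 at 0.0867, gave 7415 and 7065. Leaving out 1 array gave 383 to 5061 rises and 1493 to 5696 falls, the highest of both without adult replicate 1 and the lowest without adult replicate 2. Without adult replicate 1, centring gave 7316 and 4486, genes with a mean of at least 6 gave 1410 and 5555, and quantile normalization 4606 and 3662. The replicate block gave 746 rises and 2712 falls, within 1.5 times of the fit without it, and among the named genes it changed the calls of Ifit2 and Ngfr, which passed with it, and of Nlrc5 and Trim25, which did not, and no other. Averaging replicates 2 and 3 took the call from 129 named entries, the fit of 6 arrays from 22, leaving out 1 array from at most 21 and quantile normalization from 18. No called direction of a named gene reversed under any of these settings. Probe sets without a single symbol passed in 1102 of 13767 cases when all 35556 were fitted. Signal limits what can be said of dim genes: 6490 of 19938 genes had a mean over 12 arrays within the receptor range.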
